A study of Mus musculus with 4 samples.

Results

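The imprinted growth genes examined here were H19, Igf2, Igf2r, Grb10, Dlk1, Meg3, Snrpn, Cdkn1c, Peg3 and Mest, 10 of the 31703 genes or other names on the array. They were chosen by symbol, and all 19 of their probes were followed on all 4 arrays. RNA came from mouse erythrocyte/megakaryocyte progenitors, the common precursors of red cells and of the megakaryocytes that shed platelets, on a C57BL/6 background. The groups were Ezh2-null progenitors from adult bone marrow, wild-type progenitors from adult bone marrow, Ezh2-null progenitors from E14.5 fetal liver and wild-type progenitors from E14.5 fetal liver. The genotype is given as Ezh2-/- in the sample titles. Ezh2 encodes the enzyme of Polycomb repressive complex 2 (PRC2), which methylates histones at silent genes. Each group was hybridised to 1 one-colour Agilent array, so replicates were lacking, and the size of a difference between 2 arrays is given without a test. The labels do not give the deleted part of Ezh2, the deleter strain, the way the cells were isolated, or the number and sex of the animals.

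Imprinted genes are transcribed from the maternal or the paternal copy alone or mainly, and many of them act on fetal growth. Paternally expressed growth promoters such as Igf2 are opposed by maternally expressed genes such as Igf2r, Grb10, Cdkn1c and H19. Several members of the group have been studied in blood-forming stem cells, where H19 and Cdkn1c are linked with quiescence. The arrays report total RNA per gene and do not separate the parental copies. In RNA from a population, fewer expressing cells and less RNA per cell cannot be told apart.

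Levels are spot intensities scaled so that the 75th percentile of the probes well above background on every array was equal. They have no absolute unit, and levels of different probes are not compared with each other. The probe positions that follow are the first base of the probe in its transcript. Sequences are shown for H19, whose probes read very differently, and for the promoters of Grb10 and Igf2r, which were at least 2-fold higher in Ezh2-null than in wild-type fetal liver. Both H19 probes lie on the minus strand of build mm9, at chr7:149762417-149762476 for the probe at position 1575 and at chr7:149761492-149761551 for the probe at position 2500. Each is printed 5′ to 3′ as the scanner files hold it.
H19 probe at position 1575: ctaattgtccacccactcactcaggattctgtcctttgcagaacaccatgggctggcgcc
H19 probe at position 2500: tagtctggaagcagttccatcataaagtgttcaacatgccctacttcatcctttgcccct
The promoter windows are the 250 bases before a start of transcription, from RefSeq on build GRCm38.p6, with the dinucleotide CG in capitals. Grb10 is on the minus strand at chr11:12037421-12037670 and Igf2r on the minus strand at chr17:12769707-12769956.
Grb10 promoter: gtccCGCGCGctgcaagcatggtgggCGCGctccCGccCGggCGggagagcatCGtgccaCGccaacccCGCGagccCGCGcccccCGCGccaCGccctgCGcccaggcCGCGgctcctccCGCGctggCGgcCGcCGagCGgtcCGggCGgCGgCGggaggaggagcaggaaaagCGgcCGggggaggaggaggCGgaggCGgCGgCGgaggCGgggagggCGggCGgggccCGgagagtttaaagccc
Igf2r promoter: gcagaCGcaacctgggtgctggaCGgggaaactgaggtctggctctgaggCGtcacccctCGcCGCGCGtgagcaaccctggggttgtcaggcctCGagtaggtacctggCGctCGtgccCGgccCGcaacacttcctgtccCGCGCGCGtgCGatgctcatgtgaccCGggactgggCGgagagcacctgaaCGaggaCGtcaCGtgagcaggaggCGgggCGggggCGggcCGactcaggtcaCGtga
The Grb10 window held 40 CG dinucleotides, and 1.31% of the 32851 promoter windows of the same length held as many or more. The Igf2r window held 27, a number reached by 8.56% of windows. The median window held 6. CG reads the same on both strands, so each count covers both. A second Grb10 start had 8 CG in its window, reached by 43% of windows. Windows were matched for 8 of the 10 genes, 18 windows in all, and 11 of them held more than 6 CG.

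The arrays gave a signal well above background for 6 of the 10 genes on at least 1 array. By array, 4 genes were detected in Ezh2-null bone marrow, 2 in wild-type bone marrow, 5 in Ezh2-null fetal liver and 5 in wild-type fetal liver. H19 and Igf2r were detected on all 4 arrays, and Cdkn1c on wild-type fetal liver alone. Igf2, Meg3, Mest and Peg3 were not well above background on any array.

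**Figure D1:**
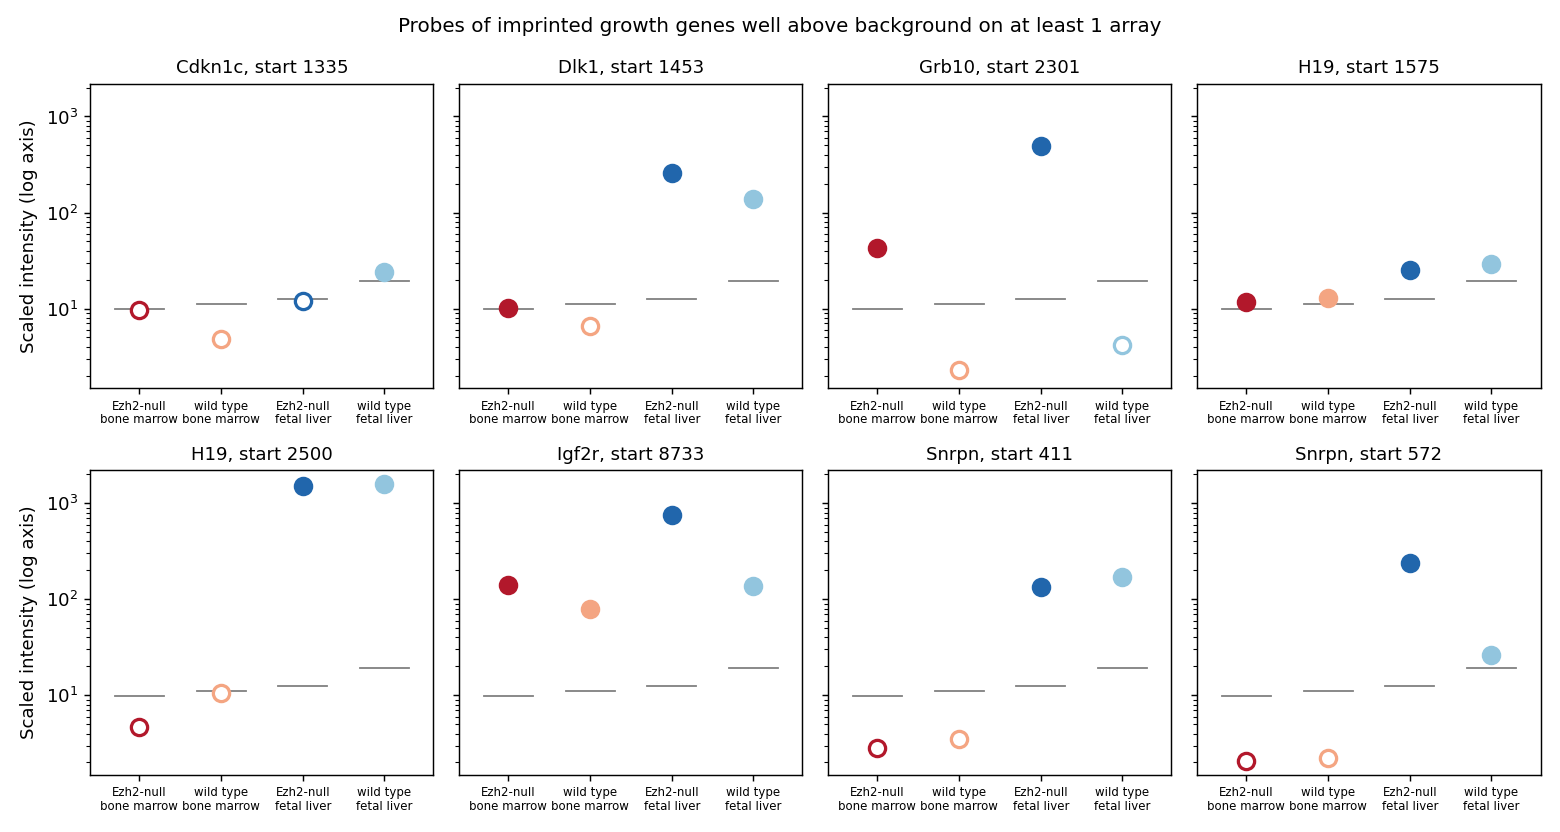
Scaled intensity (log axis) of the 8 probes of imprinted growth genes that were well above background on at least 1 of the 4 arrays. Filled points were well above background, open points were not, and grey bars give the lowest level that was called well above background on that array. Dlk1, H19 at position 2500 and Snrpn at position 411 stand high on both fetal liver arrays and near or under the bars on the bone marrow arrays. Snrpn at position 572 is high in Ezh2-null fetal liver (238) and near the bar in wild-type fetal liver (26.4), and Grb10 is above the bar on the Ezh2-null arrays alone.

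Progenitor identity and the state of the RNA were checked once for all results. Of 12 erythroid and megakaryocyte progenitor markers, 10 were detected in Ezh2-null bone marrow, 10 in wild-type bone marrow, 11 in Ezh2-null fetal liver and 10 in wild-type fetal liver. The Ezh2 probe read 70.0, 35.4, 194 and 33.5 in that order, brighter on each Ezh2-null array than on its wild-type partner. The deleted part is not known, and the cause of the brighter signal was not tested. Genotypes are given as labelled. Between 39.0% and 46.4% of 39418 probes were well above background per array. Xist, the RNA of the inactive X chromosome, had a level of 743 in Ezh2-null fetal liver and was not detected on the other 3 arrays, while 4 Y-linked genes were not detected on any array. Among genes measured on both fetal liver arrays, the median difference, Ezh2-null minus wild type, was 0.22 on the log2 scale in the 1192 with the highest probe positions and −0.49 in the 1193 with the lowest. The part of sex and of probe position in the results was not tested.

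The comparison of source asked how adult bone marrow progenitors differ from fetal ones. H19, Dlk1 and Snrpn were at least 12-fold lower in adult bone marrow, in Ezh2-null and in wild-type cells alike, by the brightest probe of each gene. H19 stood out, with a bright signal on both fetal arrays and none well above background in bone marrow at the brightest probe. Grb10 and Igf2r were lower in bone marrow among Ezh2-null cells.

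H19 is a maternally expressed long noncoding RNA that shares enhancers with Igf2 and is abundant in fetal tissues. Its probe at position 2500 read 4.68 in Ezh2-null bone marrow, 10.5 in wild-type bone marrow, 1509 in Ezh2-null fetal liver and 1577 in wild-type fetal liver. Both fetal arrays lay far above both bone marrow arrays, on which the probe was not well above background. The difference is therefore a bound, set by the lowest level called on the dim array or by the dim probe itself where that was higher. H19 was at least 154-fold lower in bone marrow than in fetal liver among Ezh2-null cells and at least 142-fold lower among wild-type cells. The other H19 probe, at position 1575, was detected on all 4 arrays and read 11.8, 12.8, 25.2 and 29.3 in the same order. By that probe H19 was 2.13-fold lower in bone marrow among Ezh2-null cells and 2.29-fold lower among wild-type cells. The probes thus went the same way and disagreed on the size.

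Dlk1 encodes a transmembrane protein with EGF-like repeats, related to the Notch ligands, and is expressed from the paternal copy. Its probe at position 1453 (mm9, plus strand, chr12:110698721-110698781) read 10.2 in Ezh2-null bone marrow, 6.60 in wild-type bone marrow, 258 in Ezh2-null fetal liver and 138 in wild-type fetal liver. The bone marrow values were near or under the lowest level called on their arrays (9.79 in Ezh2-null and 11.1 in wild-type cells), well apart from the fetal ones. Dlk1 was 25.3-fold lower in bone marrow among Ezh2-null cells and at least 12.4-fold lower among wild-type cells. A second Dlk1 probe, at position 1234, was not well above background on any array.

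Snrpn encodes a core protein of spliceosomal small nuclear ribonucleoproteins and is expressed from the paternal copy. Its probe at position 411 (mm9, minus strand, chr7:67140293-67140352) read 2.84 in Ezh2-null bone marrow, 3.54 in wild-type bone marrow, 134 in Ezh2-null fetal liver and 170 in wild-type fetal liver. It was detected on the fetal arrays alone, which set Snrpn at least 13.7-fold lower in bone marrow among Ezh2-null cells and at least 15.3-fold lower among wild-type cells. A second probe, at position 572 (chr7:67132330-67132389), read 2.08, 2.24, 238 and 26.4 in the same order and was again detected on the fetal arrays alone. By it Snrpn was at least 24.3-fold lower in bone marrow among Ezh2-null cells and at least 2.37-fold lower among wild-type cells. The third probe, at position 1978, was dim on every array. Snrpn shares a transcript with Snurf, and these probes were not resolved between them.

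Cdkn1c encodes a cyclin-dependent kinase inhibitor and is expressed from the maternal copy. Its probe (mm9, minus strand, chr7:150644753-150644812) read 9.67 in Ezh2-null bone marrow, 4.87 in wild-type bone marrow, 11.9 in Ezh2-null fetal liver and 24.3 in wild-type fetal liver. The single detected value was close to the lowest level called on that array, 19.3. Cdkn1c was at least 2.19-fold lower in bone marrow among wild-type cells. This call was lost with quantile normalization (−0.55 on the log2 scale), with the percentile over all probes (−0.78) and with scaling to 3 spike-in control probes, which left no fold.

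Among Ezh2-null cells, 5 of the 10 genes were at least 2-fold lower in bone marrow and 0 higher, and 5 had no comparison because both arrays were dim. In the same comparison 27.1% of 16688 genes were lower and 10.5% higher, 37.6% in all. Among wild-type cells, 5 of the 10 were compared, of which 4 were lower and 0 higher. Over all genes compared, 31.9% of 15382 were lower and 13.1% higher, 45% in all. A gene detected in fetal liver alone could only be lower in bone marrow, so the shared direction is a description. The direction over all genes depended on the scaling. Of the Ezh2-null calls 27.9% were higher in bone marrow, against 64.2% with the percentile over all probes and 52.2% with quantile normalization. The share was 23.7% with normexp and 75.1% with spike-in scaling. Normexp is a model-based background correction of the raw spot signals, here with an offset of 50 added, which shrinks folds at low levels. Of the wild-type calls 29.1% were higher in bone marrow, against 54.9%, 51.7%, 12% and 94.9% in the same order. With spike-in scaling the median over all genes was 0.37 on the log2 scale in Ezh2-null cells, against −0.52 in the main setting, and 0.73 in wild-type cells, against −0.58. By the probe that stood for the gene or the mean over its probes, H19, Dlk1 and Snrpn remained lower in bone marrow in both genotypes. This held under every alternative that gave a value, by at least 1.10 on the log2 scale.

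**Figure D2:**
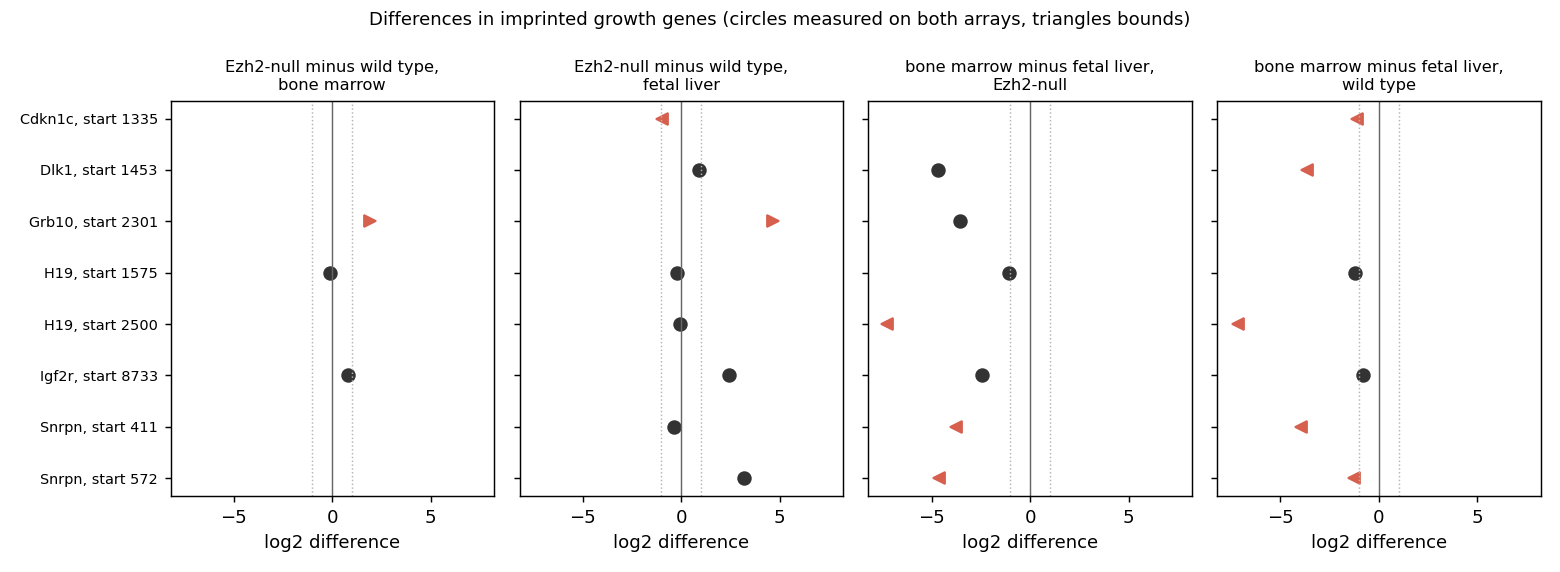
Log2 differences of the same 8 probes in the 4 comparisons, bone marrow minus fetal liver in the right-hand panels and Ezh2-null minus wild type in the left-hand ones. Circles were measured on both arrays, triangles are bounds that point away from 0, and dotted lines mark 2-fold. All points in the bone marrow against fetal liver panels lie left of 0, from −0.80 to −7.27, and in fetal liver Grb10, Igf2r and the Snrpn probe at position 572 lie right of the 2-fold line for genotype.

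Hepatoblasts of the fetal liver also express H19, Igf2 and Dlk1, so their markers were read on the same arrays. Of 14 hepatoblast and hepatocyte markers, 5 were detected in Ezh2-null bone marrow, 3 in wild-type bone marrow, 5 in Ezh2-null fetal liver and 6 in wild-type fetal liver. Their summed levels were 133, 71.5, 175 and 705 in that order, higher in fetal liver. Of the 6 markers compared between sources in each genotype, 3 were at least 2-fold lower in bone marrow among Ezh2-null cells (median −0.87 on the log2 scale, against −0.52 over all genes) and 5 among wild-type cells (median −2.17 against −0.58). The apolipoprotein gene Apoa2 read 37.1, 35.3, 79.5 and 419 in the order of the sums, and made up most of the sum in wild-type fetal liver. Among Ezh2-null cells Trf and Krt18 went the other way, at least 1.72-fold and 1.65-fold higher in bone marrow, both under 2-fold. Rbp4 was detected in wild-type fetal liver alone, at 104, and was at least 9.37-fold lower in wild-type bone marrow, where Apoa1 was at least 5.83-fold lower. Alb, Afp, Apob, Ttr, Ahsg, Fgb and Hnf4a were not well above background on any array. Stromal markers were detected for 2 of 9 genes on every array, with summed levels of 43.7, 53.1, 90.8 and 114 in the same order. The part of these cells in the source differences was not tested.

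The comparison of genotype set the progenitors labelled Ezh2-null against those labelled wild type. In fetal liver, Grb10 and Igf2r were at least 2-fold higher in Ezh2-null than in wild-type cells, and in bone marrow Grb10 was again at least 2-fold higher in Ezh2-null cells. H19 differed little, and Snrpn differed by the choice of probe.

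Grb10 encodes an adaptor protein that binds the insulin and IGF1 receptors and dampens their signalling. It had 1 probe (position 2301, mm9, minus strand, chr11:11833165-11833224), which read 42.6 in Ezh2-null bone marrow, 2.31 in wild-type bone marrow, 496 in Ezh2-null fetal liver and 4.14 in wild-type fetal liver. It was detected on both Ezh2-null arrays and on neither wild-type array. Grb10 was at least 25.7-fold higher in Ezh2-null than in wild-type fetal liver and at least 3.83-fold higher in Ezh2-null than in wild-type bone marrow. The bone marrow difference was under 2-fold with normexp background correction (0.82 on the log2 scale), and no alternative took the fetal liver difference under 2-fold (lowest 2.44 on the log2 scale). Among Ezh2-null cells Grb10 was 11.6-fold lower in bone marrow than in fetal liver.

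Igf2r encodes the receptor that carries IGF2 to the lysosome for breakdown and is expressed from the maternal copy in the mouse. Its probe at position 8733 (mm9, minus strand, chr17:12875253-12875263 as the files give it) was printed 10 times, of which 8 or 9 spots per array passed the outlier flags. The mean level was 140 in Ezh2-null bone marrow, 79.5 in wild-type bone marrow, 748 in Ezh2-null fetal liver and 138 in wild-type fetal liver. The spots ran between 133 and 147, 75.8 and 87.3, 712 and 792, and 131 and 145 in the same order. Spots of the Ezh2-null and the wild-type array of a source did not overlap, which covers error within an array only. Igf2r was 5.41-fold higher in Ezh2-null than in wild-type fetal liver, and 1.76-fold higher in Ezh2-null than in wild-type bone marrow, under the 2-fold line. Against fetal liver, Igf2r was 5.35-fold lower in bone marrow among Ezh2-null cells and 1.74-fold lower among wild-type cells. With spike-in scaling the wild-type difference was 0.54 on the log2 scale, in the other direction. Over the 4 arrays, the patterns nearest to that of Igf2r among 11176 genes detected on all arrays belonged to entries that the files name ENSMUST00000084653 and NAP111445-1, at distances of 0.145 and 0.226 log2 units.

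Dlk1 was 1.87-fold higher in Ezh2-null than in wild-type fetal liver, under 2-fold, with 1.37 on the log2 scale under spike-in scaling and 0.14 with the mean over its probes, of which the second was dim, against 0.90 in the main setting. In bone marrow it was detected on the Ezh2-null array alone, at a level that gave no fold against wild type. H19 at position 2500 was 1.04-fold lower in Ezh2-null than in wild-type fetal liver, and at position 1575 it was 1.16-fold lower in fetal liver and 1.08-fold lower in bone marrow. With quantile normalization and spike-in scaling the difference at position 2500 was 0.16 and 0.40 on the log2 scale, in the other direction. The error that Feature Extraction gives for a spot at position 2500 in fetal liver was 10%, which covers error within an array only.

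Snrpn gave opposite readings in fetal liver. At position 411 it was 1.27-fold lower in Ezh2-null than in wild-type cells, and at position 572 it was 9.02-fold higher. The difference at position 411 was 0.13 on the log2 scale with spike-in scaling, and the mean over the probes gave 0.88. The error given for a spot was at most 18.1% for these values, so the gap between the probes is larger than spot error. The probes were designed on different Snrpn transcripts. Cdkn1c was at least 1.94-fold lower in Ezh2-null than in wild-type fetal liver, a bound that passed 2-fold with the percentile over all probes (−1.12 on the log2 scale) and without the background filter (−1.03).

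In fetal liver, 6 of the 10 genes were compared, of which 2 were at least 2-fold higher on the Ezh2-null array and 0 lower. Over all genes compared, 15.4% of 16257 were higher and 13.5% lower, 28.9% in all. In bone marrow, 3 of the 10 were compared, of which 1 was higher and 0 lower. Over all genes compared, 4.54% of 15279 were higher and 7.74% lower, 12.3% in all. Of all fetal liver calls 53.3% were higher in Ezh2-null cells, against 41.4% with the percentile over all probes, 42.8% with normexp and 82.8% with spike-in scaling. The bone marrow arrays also differed in lymphoid RNA, with a summed level of 9 B and T lymphoid markers of 3821 in Ezh2-null against 188 in wild-type cells. Most of the Ezh2-null sum came from Vpreb1 (2202) and Dntt (1381). Of 6 of these markers compared, 5 were at least 2-fold higher in Ezh2-null cells, and Pax5 was slightly lower (67.9 against 77.6). The part of lymphoid RNA in the Grb10 difference was not tested. In fetal liver, 4 of 7 hepatoblast and hepatocyte markers compared were at least 2-fold lower in Ezh2-null cells and 0 higher. Their median was −1.1 on the log2 scale, against −0.14 over all genes. Apoa2 was 5.27-fold lower and Rbp4 at least 8.3-fold lower. The part of liver cell RNA in the fetal liver genotype differences was not tested.

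A limma fit with source and genotype as additive terms was run over all genes, with 2 arrays per level and 1 residual degree of freedom. It tested 17668 genes, 6 of them members. For genotype, Ezh2-null minus wild type, Grb10 had a log2 difference of 2.91 ± 1.37 and Igf2r 1.62 ± 0.63 (SE), each with an adjusted p of 0.802 by limma. For source, bone marrow minus fetal liver, H19 had −6.32 ± 0.0803, Snrpn −2.97 ± 0.152 and Dlk1 −3.29 ± 0.357, with unadjusted p of 0.000541, 0.00559 and 0.0196 and an adjusted p of 0.278 each by limma. These fits raised dim signals to a common floor of 19.3, so their differences for partly dim genes are floor values. Both bone marrow values of H19, Snrpn and Dlk1 were raised to that floor. The SE and p of these genes therefore hold no spread between the bone marrow arrays, and no conclusion is drawn from them. By limma 0 genes (0%) passed an adjusted p of 0.05 for genotype, with 424 at an unadjusted p under 0.05, and 0 (0%) for source, with 3067 unadjusted.

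The 4 undetected genes include the growth factor itself. Igf2 had 1 probe, at position 990 (mm9, minus strand, chr7:149839661-149839720), with levels of 2.65 in Ezh2-null bone marrow, 5.23 in wild-type bone marrow, 9.58 in Ezh2-null fetal liver and 13.8 in wild-type fetal liver. None was well above background, and the absence of a signal at this probe does not show that Igf2 RNA was absent. Meg3, the maternally expressed long noncoding RNA of the Dlk1 domain, had 3 probes, and the brightest read 5.90, 6.86, 11.8 and 12.2 in the same order. Peg3, a paternally expressed zinc finger gene, had 2 probes, and Mest, which encodes a protein of the alpha/beta hydrolase fold, had 3. Across all 11 probes that were dim on every array, levels ran between 2.06 and 15.0.

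**Figure D3:**
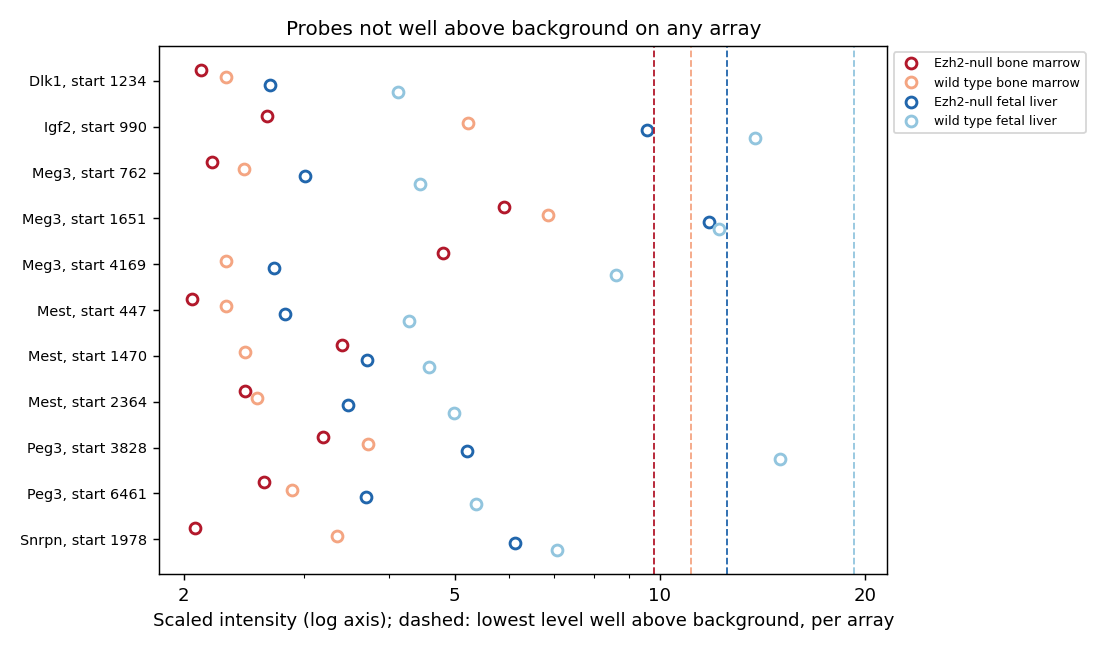
Scaled intensity (log axis) of the 11 member probes that were not well above background on any array, with 4 points per probe for the 4 arrays. Dashed lines give the lowest level called well above background on each array, 9.79 in Ezh2-null bone marrow, 11.1 in wild-type bone marrow, 12.6 in Ezh2-null fetal liver and 19.3 in wild-type fetal liver. Every point lies left of the line of its own array.

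Among 55 other imprinted genes, 53 were on the array and 36 were detected on some array. In bone marrow against fetal liver, 12 were at least 2-fold lower and 5 higher among Ezh2-null cells (median −0.50 on the log2 scale over 35 compared, against −0.52 over all genes). Among wild-type cells 9 were lower and 6 higher (median −0.45 over 30, against −0.58). Over all genes the shares were 27.1% lower and 10.5% higher among Ezh2-null cells, and 31.9% and 13.1% among wild-type cells. Peg10, a retrotransposon-derived gene needed for the placenta, had levels of 2.07 in Ezh2-null bone marrow, 2.29 in wild-type bone marrow, 82.9 in Ezh2-null fetal liver and 67.9 in wild-type fetal liver. It was detected on the fetal arrays alone, at least 8.46-fold lower in bone marrow among Ezh2-null cells and at least 6.11-fold lower among wild-type cells. The ubiquitin ligase gene Ube3a was at least 3.17-fold and at least 4.29-fold lower in Ezh2-null and in wild-type cells, in that order, and Mcts2 7.12-fold and 3.20-fold. Under 2-fold were Ube3a in both genotypes with spike-in scaling and with the mean over its probes, Ube3a in Ezh2-null cells also with normexp and quantile normalization, Mcts2 in wild-type cells with spike-in scaling, and Peg10 in wild-type cells with the mean over its probes. Also lower in both genotypes were Sgce, Ndn and Ins2, by 2.02-fold to 2.55-fold, and Mirg, by at least 2.83-fold in Ezh2-null and at least 2.20-fold in wild-type cells. These 4 genes were under 2-fold in both genotypes with spike-in scaling or went the other way. Among Ezh2-null cells Sgce, Ndn and Ins2 were also under 2-fold with normexp, with quantile normalization and with the percentile over all probes. Among wild-type cells Sgce, Ndn and Ins2 were under 2-fold with that percentile, and Ins2 with quantile normalization. Past 2-fold lower in Ezh2-null cells were also Blcap, Pon2, Airn, Impact and Jade1, and in wild-type cells Asb4 and Tssc4. Of these, Blcap and Airn were under 2-fold with the percentile over all probes and with spike-in scaling, Jade1 with normexp and Impact with the mean over its probes. The wild-type differences of Asb4, Ndn, Ins2 and Tssc4 went the other way with spike-in scaling, and those of Asb4 and Tssc4 were under 2-fold with the percentile over all probes. Higher in bone marrow in both genotypes were Nap1l4 (3.47-fold in Ezh2-null and 9.78-fold in wild-type cells), Osbpl5 (at least 16.1-fold and at least 3.05-fold), Gatm and Gnas. With normexp, Nap1l4 in Ezh2-null cells, Osbpl5 in wild-type cells and Gatm in both genotypes were under 2-fold. The difference of Gnas, which encodes a G protein subunit, went the other way with the mean over its probes and with the probe nearest the 3′ end. Commd1 was past 2-fold higher in Ezh2-null cells and Phlda2 and Trappc9 in wild-type cells, and all 3 were under 2-fold with normexp.

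**Figure D4:**
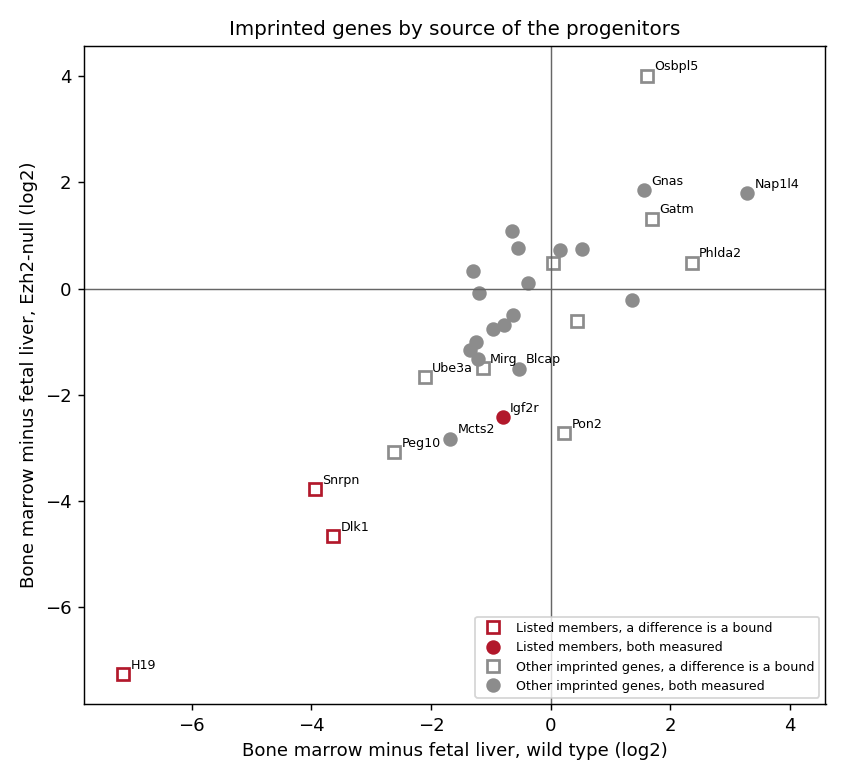
Log2 differences, bone marrow minus fetal liver, in wild-type cells (horizontal axis) and in Ezh2-null cells (vertical axis) for the 31 imprinted genes compared in both genotypes. Squares mark genes for which at least 1 difference is a bound. H19, Dlk1 and Snrpn lie lowest on both axes, at −7.27 for H19, −4.66 for Dlk1 and −3.78 for Snrpn in Ezh2-null cells and at −7.15, −3.63 and −3.94 in wild-type cells, and Osbpl5, Nap1l4, Gnas and Gatm lie in the upper right.

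By genotype in fetal liver, 15.4% of all genes compared were at least 2-fold higher in Ezh2-null cells and 13.5% lower. Of 31 other imprinted genes compared, 6 were higher and 2 lower (median 0 against −0.14 over all genes). Higher were Impact (at least 4.13-fold), which encodes a regulator of translation under stress, the paraoxonase gene Pon2 (at least 3.36-fold), the small membrane protein gene Nnat (at least 2.19-fold), Mcts2 (2.15-fold), Trappc9 (2.09-fold) and Jade1 (at least 2.05-fold). All 6 were under 2-fold with normexp. Lower were Tssc4 (2.28-fold) and Tspan32 (2.24-fold), which were under 2-fold with quantile normalization and spike-in scaling. In bone marrow, where 4.54% of all genes compared were higher and 7.74% lower, 1 of 30 was higher and 2 lower. Osbpl5 was 3.43-fold higher, Phlda2 2.87-fold lower and Pon2 at least 2.32-fold lower. With normexp Phlda2 and Pon2 were under 2-fold.

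The IGF and insulin pathway, on which Igf2, Igf2r and Grb10 act, had 35 further genes on the array, of which 23 were detected. The receptor Igf1r read 2.20 in Ezh2-null bone marrow, 16.3 in wild-type bone marrow, 79.9 in Ezh2-null fetal liver and 47.8 in wild-type fetal liver. It was at least 8.16-fold lower in bone marrow among Ezh2-null cells and 2.94-fold lower among wild-type cells. The ligand Igf1 was detected on every array, at 21.1, 20.8, 30.6 and 42.4 in the same order. By genotype in fetal liver, 15.4% of all genes compared were higher and 13.5% lower. Of the pathway, 3 of 20 compared were higher and 1 lower (median 0.29 against −0.14). These were Pdpk1, the kinase that activates AKT (6.45-fold), the ubiquitin ligase gene Nedd4, whose product binds GRB10 (at least 4.89-fold), the binding protein gene Igfbp7 (2.65-fold) and, lower, the insulin gene Ins1 (at least 3.03-fold). In bone marrow 4.54% of all genes compared were higher and 7.74% lower. Of the pathway, 1 of 18 was higher, the PI3 kinase subunit gene Pik3r1 (at least 2.60-fold), and 1 lower, Igfbp7 (2.03-fold). With normexp all of these genotype differences but that of Pdpk1 were under 2-fold. Between sources, 10 of 22 were lower and 2 higher in bone marrow among Ezh2-null cells (median −0.80 against −0.52). Among wild-type cells 6 of 18 were lower and 3 higher (median 0 against −0.58). Over all genes the shares were 27.1% lower and 10.5% higher among Ezh2-null cells, and 31.9% and 13.1% among wild-type cells. Lower in wild-type bone marrow beside Igf1r were Ins1 (at least 3.42-fold), Irs2 (2.32-fold), Igfbp2 (2.18-fold), Pdpk1 (2.17-fold) and Igf1 (2.03-fold), of which the last 4 went the other way with spike-in scaling, while Igf1r and Ins1 were under 2-fold with it. Among Ezh2-null cells Pdpk1 was 11.7-fold, Nedd4 at least 9.63-fold and the insulin receptor gene Insr at least 3.86-fold lower in bone marrow, and the adaptor gene Shc1 was 2.28-fold higher, against 2.04-fold higher among wild-type cells. Nedd4 and Insr were under 2-fold with the mean over their probes, and Shc1 in wild-type cells with normexp.

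Of 21 Notch pathway genes, 11 were detected. In fetal liver 2 of 11 were higher in Ezh2-null cells, the shedding protease gene Adam10 (2.72-fold) and the gamma-secretase subunit gene Ncstn (at least 2-fold), and 1 lower, the coactivator Maml1 (3.54-fold), with a median of 0.12 against −0.14. In bone marrow 1 of 10 was higher, Ncstn (at least 3.26-fold), and 1 lower, Adam10 (2.69-fold). With normexp every one of these Notch pathway differences was under 2-fold. Over all genes 15.4% were higher and 13.5% lower in fetal liver, and 4.54% higher and 7.74% lower in bone marrow. A further list held 22 genes of imprint control and of DNA or histone methylation, PRC2 subunits and DNA demethylation enzymes included. Of these, 7 of 20 compared in fetal liver were higher in Ezh2-null cells and 0 lower (median 0.66 against −0.14). The 7 were Ezh1 (at least 12.2-fold), the DNA methyltransferases Dnmt3a (at least 10.9-fold), Dnmt1 (3.64-fold) and Dnmt3b (2.44-fold), the PRC2 subunit Eed (6.23-fold), the DNA demethylation enzyme Tet2 (at least 4.08-fold) and the histone-binding Rbbp7 (2.58-fold). Dnmt1, Dnmt3b and Tet2 were under 2-fold with normexp. In bone marrow 0 of 17 were higher and 1 lower, the histone methyltransferase gene Setdb1 (at least 2.22-fold), which was under 2-fold with normexp. In bone marrow against fetal liver, 9 of 19 of these genes were lower and 1 higher among Ezh2-null cells (median −0.74 against −0.52), and 1 of 18 was lower and 4 higher among wild-type cells (median 0.32 against −0.58). For the Notch pathway the counts were 3 lower and 3 higher of 11 among Ezh2-null cells (median −0.771). Among wild-type cells they were 2 lower and 2 higher of 9 (median −0.165). Over all genes 27.1% were lower and 10.5% higher among Ezh2-null cells, and 31.9% and 13.1% among wild-type cells.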

How the data were processed

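RNA of 4 samples, 1 per group, was measured on 1 slide scanned on 1 date. The deposited intensity values are output of Agilent Feature Extraction 10.7.3.1, protocol GE1_107_Sep09, per the file headers: the processed signal is background-subtracted and detrended within the array. The authors' series table holds the same intensity values, rounded (at most 0.496% apart). Other deposited columns used, per the file headers, were flags of 0 or 1 and the probe position.

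Control spots and outlier spots (95 to 135 per array) were left out, and no spot was saturated. Spots of a probe were averaged on the log2 scale. Arrays were scaled to the 75th percentile of the 12880 probes well above background on all 4. The brightest probe stood for a gene. A difference of at least 2-fold was called, as a bound where 1 side was dim, with genes dim on both left out. Names were updated through RefSeq (GRCm38.p6): 26048 probes by accession, 3193 by symbol, 929 by an older name, and 9248 kept theirs. The additive fit used limma 3.58.1 (R 4.3.3), two-sided, with Benjamini-Hochberg adjustment, and was tested on simulated data. Alternatives were normexp (offset 50), quantile, all-probe and spike-in scaling (3 spike probes), the series table, other probe choices and other background filters.

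Members and lists were chosen with earlier results of these data known. All members are named, and of other lists the genes at least 2-fold apart. The number of arrays limits the precision: the median error given for a spot was 10.6% to 11.1%, within an array only.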

Additional observations from a re-analysis of the deposited data

Results flagged for a closer look

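Genes of the other lists are named here where the genotype difference passed 2-fold in opposite directions in the 2 sources. Over all genes compared, 28.9% passed 2-fold either way in fetal liver and 12.3% in bone marrow. How many of all genes passed it in opposite directions was not counted, so the naming is a description. The difference between sources was not tested. No member of the imprinted growth genes passed 2-fold in opposite directions. For Ezh2-null minus wild type on the log2 scale, Pon2 had differences of −1.21 in bone marrow and 1.75 in fetal liver, both bounds. Igfbp7 had −1.02 in bone marrow and 1.41 in fetal liver. Adam10 had −1.43 in bone marrow and 1.44 in fetal liver. All of these differences were under 2-fold with normexp.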

How the results depend on the processing

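Of 18 member differences, 11 kept their direction and their side of 2-fold under every alternative that gave a value, and none that was called changed sign. The members called in fetal liver by genotype numbered 2, against 1 when both arrays had to be well above background and 4 with no background filter. In bone marrow by genotype the 1 call was 0 with normexp and with detection on both arrays, and 2 with no filter. Between sources, detection on both arrays left 3 of 5 calls among Ezh2-null cells and 0 of 4 among wild-type cells. Such detection removes every bound by construction.

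Over all genes, normexp gave 1853 calls in fetal liver by genotype (4698 in the main setting), 371 in bone marrow by genotype (1876) and 3000 between sources among Ezh2-null cells (6267). No filter gave 8523, 4972, 11157 and, among wild-type cells between sources, 12994 (6916). Detection on both arrays gave 1114 in bone marrow by genotype. The offset of 50 added with normexp shrinks folds most at low levels. Its part in the lower counts and the cause of the other shifts were not tested. With detection on all 4 arrays the limma fit called 138 of 11177 genes for source. Igf2r was the only member that this fit could test, and it was not called.

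Of 108 differences of the other lists, 18 kept their call throughout and 10 changed sign. For bone marrow minus fetal liver, Gnas was −0.17 among Ezh2-null and −0.12 among wild-type cells with the mean over its probes, and −0.46 and −0.37 with the probe nearest the 3′ end. With spike-in scaling, among wild-type cells, Asb4 was 0.14, Ndn 0.096, Ins2 0.12, Tssc4 0.048, Igf1 0.32, Irs2 0.13, Igfbp2 0.22 and Pdpk1 0.22 on the log2 scale. No paired analysis was possible because each group holds 1 array and the labels give no replicate numbers. The additive fit is the one model that compares genotypes within source. Leaving out an array leaves no residual degree of freedom in the fit and no pair, so it was not run.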
